A study of Mus musculus with 8 samples.

Results

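The macrophage and leukocyte genes described here are Cd68, Csf1r, Adgre1, Mrc1, C1qa, C1qb, C1qc, Aif1, Ptprc and Tyrobp. They were chosen by name, each symbol matched 1 gene ID, and they make up 10 of the 54532 genes in the read-count table. All 10 were among the 16440 genes that passed a filter on low counts. The libraries were prepared from enamel organs of the first molars of untreated C57BL/6 wt mice at P5 (day 5, secretory stage) and P12 (day 12, maturation stage). Each library was a pool of 5 pups, with 4 libraries at each age, so the spread between libraries is a spread between pools and not between animals. The labels number them 1, 3, 4 and 5 at P5 and 1, 2, 3 and 4 at P12. Polyadenylated RNA was sequenced, and the values are whole-number read counts per gene. The total count was 16963323, 19251202, 16574548 and 20262601 in P5 replicates 1, 3, 4 and 5, and 22013456, 19520437, 18036016 and 17588152 in P12 replicates 1, 2, 3 and 4.

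Tissue macrophages depend on the receptor encoded by Csf1r, which binds the cytokines encoded by Csf1 and Il34. They are recognised by surface and lysosomal proteins such as those of Adgre1, Mrc1 and Cd68, and they are a main source of the complement component C1q, whereas Ptprc marks leukocytes in general. In the jaw, macrophages are found in the dental follicle and pulp, and osteoclasts, which arise from the same lineage, resorb the bone that overlies an erupting tooth.

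One library at each age stood apart from the other 3. The difference between 2 libraries was measured as chi-square per degree of freedom over genes, where counting noise alone gives about 1. Pairs with P5 replicate 5 reached 17.1 to 18.5, against 4.76 to 5.89 for the other P5 pairs. Pairs with P12 replicate 4 reached 31.6 to 74.6, against 8.58 to 18.9 for the other P12 pairs. The summed normalized count of 7 keratins and other genes of oral epithelium was 29939, 34893 and 22410 in P12 replicates 1, 2 and 3 and 4211 in P12 replicate 4. For 7 erythroid genes the sum was 36895, 38133 and 30817 in P5 replicates 1, 3 and 4 and 19420 in P5 replicate 5. Larger gaps in that library were found in genes of the maturation stage. Klk4 was at 3589, 2586 and 2692 in the other P5 libraries and at 703 in replicate 5, Slc24a4 at 2269, 1787 and 1581 and at 332, and Amtn at 19787, 16356 and 16750 and at 5149. All 3 were highest in P12 replicate 4. Here a normalized count is a read count divided by its library's effective size (TMM, edgeR) and multiplied by the mean effective size. Where a call of a named gene differed without both of these libraries, the value without them is given too.

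Of the 10 genes, 6 rose from P5 to P12 in edgeR's quasi-likelihood test at an adjusted p under 0.05 (Cd68, Tyrobp, Ptprc, Csf1r, C1qa and C1qc). The other 4 (C1qb, Adgre1, Mrc1 and Aif1) did not pass. The comparison asks how the makeup and activity of the enamel organ differ between the secretory and the maturation stage. Over all 16440 genes tested, 57.2% were called, 28.8% as higher and 28.4% as lower at P12. No member was lower at P12 in edgeR, DESeq2 or limma-voom, and in each of the 3 tools the number lower at an unadjusted p under 0.05 was 0 as well. The median log2 fold change (P12 against P5) was 0.33 for the members and 0.01 for all genes tested. Every P12 library lay above every P5 library for 2 members, Cd68 and Tyrobp, compared with 26% of all genes above and 26.6% below. In bulk tissue, a change in the number of cells of a type and a change in RNA per cell cannot be told apart. With 1 library left out, 3 to 7 members rose, with the fewest when P12 replicate 1, P12 replicate 2 or P5 replicate 5 was left out, while 52% to 59.3% of all genes were called. In the 6 libraries whose replicate numbers occur at both ages 2 rose, with 49.5% of all genes called. Without both P5 replicate 5 and P12 replicate 4, an alternative chosen after seeing the data, 7 members rose, the 6 above and C1qb. In that fit 58.7% of all genes were called, 4921 as higher and 4855 as lower. Scaling by total count moved the median of all genes from 0.01 to 0.38 and turned 4735 higher and 4676 lower calls into 8885 and 2330. Under that scaling 9 members passed, all but Aif1. The median of the members lay 0.32 above that of all genes in both fits. A change of scaling shifts all genes nearly alike, so this gap is no separate check.

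**Figure D1:**
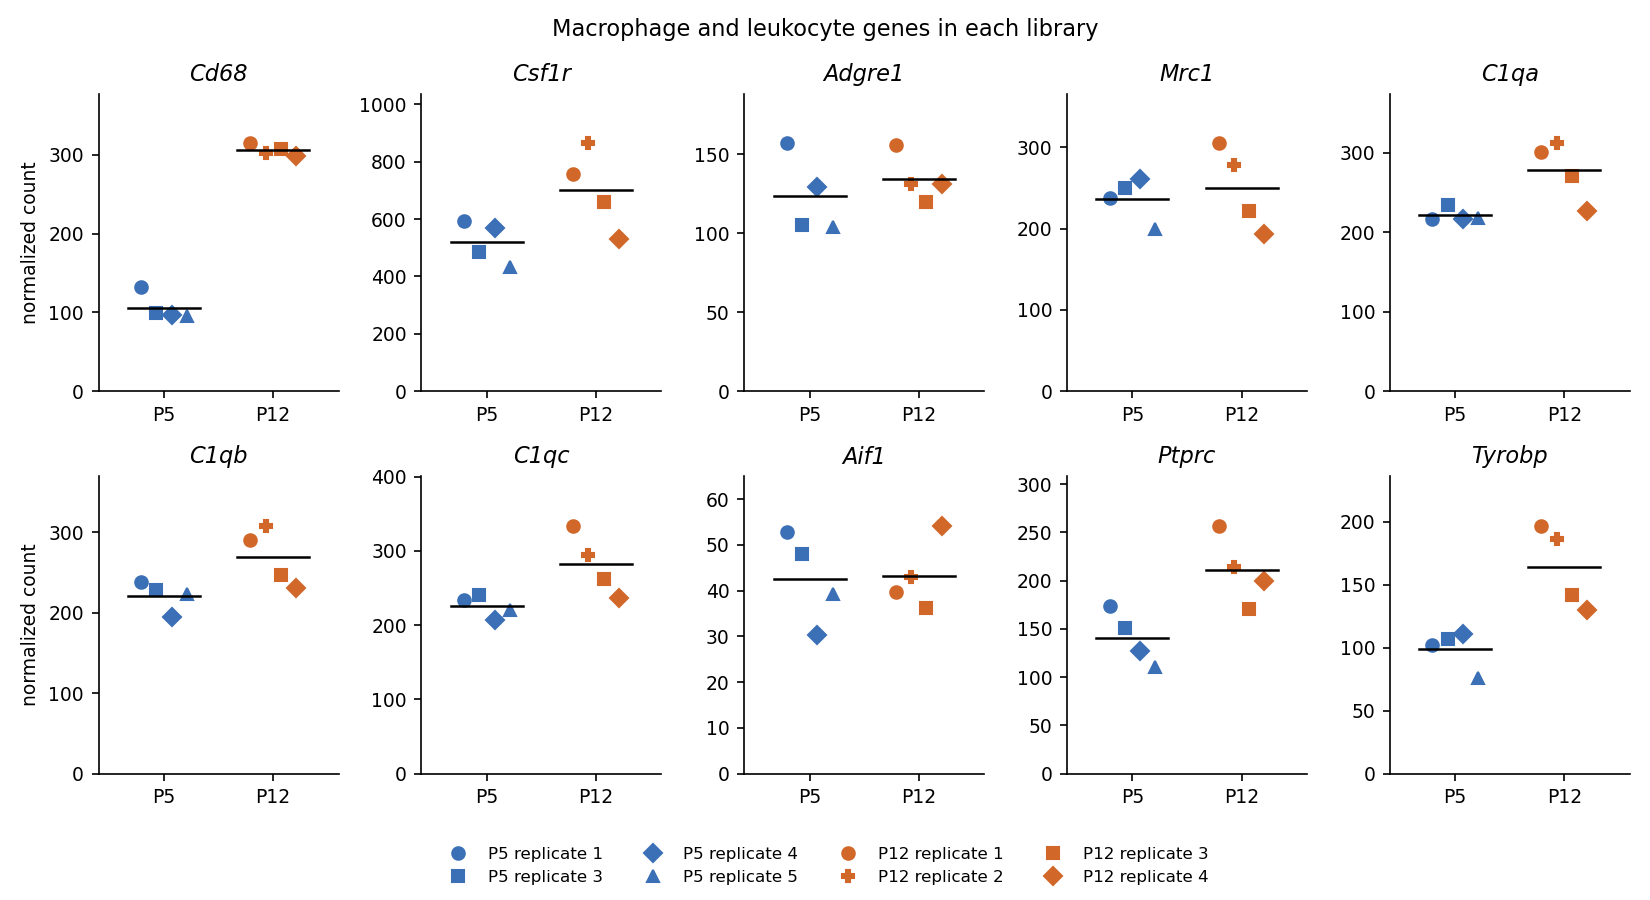
Normalized count (vertical axis, from 0) of each of the 10 genes in the 4 P5 libraries (blue) and the 4 P12 libraries (orange), with a marker for each replicate number and a black line at the mean. The ages are fully separated for Cd68 and Tyrobp, and they overlap for the other 8 genes.

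Cd68 encodes a glycoprotein of late endosomes and lysosomes that is abundant in macrophages and also made by other cells rich in lysosomes. It lies at chr11:69664213-69666153 on the minus strand of GRCm38 (ENSMUSG00000018774), and none of its exonic bases are shared with another gene. Its normalized count was 132, 99.5, 96.2 and 95.3 in P5 replicates 1, 3, 4 and 5, and 315, 303, 308 and 298 in P12 replicates 1, 2, 3 and 4. The P12 libraries were all close to each other and all above the P5 libraries, of which replicate 1 was the highest. The log2 fold change was 1.53 ± 0.12 (SE, n = 4 pools per age; edgeR adjusted p = 1.2e-06), and the exact permutation p was 0.0286, the smallest that this test can give with 4 libraries at each age. Cd68 had the largest rise of the 10 and was called under all 20 alternatives, with a log2 fold change between 1.48 and 1.91.

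Upstream sequences are shown for Cd68, which rose most, for C1qb and C1qc, which lie side by side, and for Mrc1, whose level did not pass the test, so that genes with different age differences can be read next to each other. The RefSeq promoter table for GRCm38.p6 holds 7 windows for 6 of the 10 genes (Cd68, Mrc1, C1qb, C1qc, Aif1 and, with 2 windows, Ptprc), each from 250 bases before to 50 bases after a transcription start. Csf1r, Adgre1, C1qa and Tyrobp are named only. Capitals mark GAGGAA on either strand (TTCCTC on the other), the core of the sequence bound by PU.1, the myeloid transcription factor encoded by Spi1. This motif of 6 bases occurs in 28.3% of all 32851 promoter windows of 300 bases and in 6 of the 7 windows of the members, and a match is a description and not a site. Bases are printed 5′ to 3′ on the strand of the gene, and stop at the base before the RefSeq start in Cd68 and C1qb and where an exon of GENCODE M21 begins in C1qc and Mrc1. They are chr11:69666171-69666420 on the minus strand for Cd68, chr4:136886201-136886450 on the minus strand for C1qb, chr4:136893066-136893164 on the minus strand for C1qc and chr2:14229164-14229391 on the plus strand for Mrc1.
Cd68: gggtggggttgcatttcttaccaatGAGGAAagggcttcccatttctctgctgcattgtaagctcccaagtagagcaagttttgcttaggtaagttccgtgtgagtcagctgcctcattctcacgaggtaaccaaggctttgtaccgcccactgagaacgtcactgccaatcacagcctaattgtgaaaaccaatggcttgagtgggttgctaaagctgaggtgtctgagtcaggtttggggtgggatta
C1qb: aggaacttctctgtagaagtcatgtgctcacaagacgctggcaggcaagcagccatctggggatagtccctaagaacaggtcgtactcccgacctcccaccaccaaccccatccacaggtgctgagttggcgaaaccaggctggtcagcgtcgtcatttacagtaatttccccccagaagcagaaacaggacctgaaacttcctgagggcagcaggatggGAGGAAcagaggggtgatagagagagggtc
C1qc: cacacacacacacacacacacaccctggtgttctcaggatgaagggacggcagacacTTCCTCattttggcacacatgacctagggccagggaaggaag
Mrc1: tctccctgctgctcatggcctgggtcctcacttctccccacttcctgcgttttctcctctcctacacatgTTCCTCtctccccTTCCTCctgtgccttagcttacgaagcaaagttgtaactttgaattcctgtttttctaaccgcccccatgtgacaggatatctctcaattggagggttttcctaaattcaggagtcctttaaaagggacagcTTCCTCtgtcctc
The motif begins 225 bases before the start in Cd68, 30 before it in C1qb and 193 before it in C1qc. Cd68 holds another copy that begins 29 bases after the start, beyond the bases shown. Mrc1 holds 3 copies, which begin 180, 167 and 35 bases before its start.

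Csf1r encodes the receptor tyrosine kinase through which macrophages receive their survival and growth signals. It lies on chromosome 18 (ENSMUSG00000024621). Its normalized count was 594, 485, 569 and 432 in P5 replicates 1, 3, 4 and 5, and 759, 865, 659 and 529 in P12 replicates 1, 2, 3 and 4. The lowest P12 library, replicate 4, lay within the P5 range, and the other 3 lay above it. The log2 fold change was 0.44 ± 0.15 (SE, n = 4 pools per age; edgeR adjusted p = 0.024), with an exact permutation p of 0.0857. The call was lost without P12 replicate 1 (adjusted p = 0.0612), P12 replicate 2 (0.0794), P5 replicate 3 (0.0702) or P5 replicate 5 (0.074), and over all 20 alternatives the adjusted p ran from 0.00085 to 0.171. Without both libraries that stood apart the log2 fold change was 0.47 (adjusted p = 0.00137). In the 6 libraries whose replicate numbers occur at both ages it was 0.24 (0.171), and 0.23 (0.145) with replicate number as a block. Of the exonic bases of Csf1r, 15.1% lie in exons of Hmgxb3 on the opposite strand. Whether the counting used strand is not given in the sources used here, so reads from those bases may belong to either gene. The same limit holds for Cebpb (20.7% of exonic bases), C1s1 (18.4%), Ckm (15.5%) and Cd52 (14.5%), which also share exonic bases with a gene on the opposite strand. Hmgxb3 itself fell, with a log2 fold change of -0.45 ± 0.06 (SE; edgeR adjusted p = 9.3e-05), from 765 to 853 normalized counts at P5 to between 575 and 619 at P12.

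Adgre1 encodes the macrophage surface antigen F4/80, an adhesion G protein-coupled receptor (ENSMUSG00000004730, chr17:57358691-57483527, plus strand). Its normalized count was 157, 105, 129 and 104 in P5 replicates 1, 3, 4 and 5, and 156, 131, 120 and 131 in P12 replicates 1, 2, 3 and 4. Replicate 1 was the highest at both ages and the P12 range lay within the P5 range. The log2 fold change was 0.13 ± 0.16 (SE; edgeR adjusted p = 0.53), and between 0.04 and 0.26 when 1 library was left out. Mrc1 encodes the mannose receptor, which takes up glycoproteins and microbes (ENSMUSG00000026712, chr2:14229392-14332057, plus strand). The normalized count of Mrc1 was 237, 250, 261 and 199 at P5 and 305, 278, 221 and 193 at P12, in the same order of replicates. P12 replicates 1 and 2 lay above all P5 libraries, and P12 replicate 4 lay below them. The log2 fold change was 0.08 ± 0.15 (SE; edgeR adjusted p = 0.68), and between -0.04 and 0.18 when 1 library was left out.

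C1qa, C1qb and C1qc encode the 3 chains of C1q, the recognition molecule of the classical complement pathway. They lie next to each other on the minus strand of chromosome 4, C1qa at chr4:136895917-136898803, C1qc at chr4:136889804-136893065 and C1qb at chr4:136880129-136886187 (ENSMUSG00000036887, ENSMUSG00000036896 and ENSMUSG00000036905). The normalized count of C1qa was 216, 234, 216 and 218 in P5 replicates 1, 3, 4 and 5, and 301, 312, 271 and 227 in P12 replicates 1, 2, 3 and 4. For C1qb it was 238, 228, 195 and 223 at P5 and 290, 308, 247 and 231 at P12. For C1qc it was 234, 241, 207 and 221 at P5 and 334, 294, 262 and 237 at P12. In all 3 genes P12 replicate 4 was the lowest P12 library and lay within the P5 range, while the other 3 P12 libraries lay above every P5 library.

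The log2 fold changes of the chains were alike in size. For C1qa it was 0.33 ± 0.11 (SE; edgeR adjusted p = 0.025), for C1qc 0.32 ± 0.12 (adjusted p = 0.036) and for C1qb 0.29 ± 0.12 (adjusted p = 0.055). The threshold thus lies between C1qc and C1qb, whose estimates differ by much less than their standard errors. Each of the 3 had an exact permutation p of 0.0571. The call of C1qa was lost without P12 replicate 1 (adjusted p = 0.0741), P12 replicate 2 (0.083), P5 replicate 1 (0.0577), P5 replicate 4 (0.0593) or P5 replicate 5 (0.0528), with a range of 0.0005 to 0.158 over the 20 alternatives. That of C1qc was lost without P12 replicate 1 (0.125), P12 replicate 2 (0.0868), P5 replicate 1 (0.0582), P5 replicate 4 (0.0978) or P5 replicate 5 (0.0752), with a range of 0.000776 to 0.136. C1qb was called without P12 replicate 4 (0.0192) and without both libraries that stood apart (0.0238), with a range of 0.000929 to 0.206.

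Tyrobp encodes an adaptor that passes on signals of activating receptors in myeloid and natural killer cells (ENSMUSG00000030579, chr7:30413760-30417585, plus strand). Its normalized count was 102, 107, 111 and 76.2 in P5 replicates 1, 3, 4 and 5, and 197, 186, 142 and 130 in P12 replicates 1, 2, 3 and 4. The ages did not overlap, although the lowest P12 library was again replicate 4. The log2 fold change was 0.73 ± 0.18 (SE, n = 4 pools per age; edgeR adjusted p = 0.0046), the second largest of the 10, with an exact permutation p of 0.0286. It passed with each single library left out, with a log2 fold change between 0.62 and 0.83. Over all 20 alternatives its adjusted p ran from 0.000379 to 0.0569, the highest with replicate number as a block over 6 libraries.

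Ptprc encodes the leukocyte common antigen, a phosphatase on the surface of nucleated blood cells (ENSMUSG00000026395, chr1:138062861-138175708, minus strand). Its normalized count was 174, 151, 127 and 111 in P5 replicates 1, 3, 4 and 5, and 257, 214, 171 and 200 in P12 replicates 1, 2, 3 and 4. P12 replicate 3 lay just below the highest P5 library, and the other P12 libraries lay above it. The log2 fold change was 0.59 ± 0.17 (SE; edgeR adjusted p = 0.0105), and between 0.47 and 0.70 with 1 library left out, where Ptprc passed each time. Over all 20 alternatives its adjusted p ran from 0.000528 to 0.0604, the highest with only the 6 libraries whose replicate numbers occur at both ages. Aif1 encodes an actin-bundling protein of macrophages and microglia (ENSMUSG00000024397, chr17:35170991-35176068, minus strand). The normalized count of Aif1 was 52.7, 48.1, 30.3 and 39.2 at P5 and 39.6, 43, 36.1 and 54.2 at P12. These were the lowest counts of the 10 genes, 23 to 54 reads per library, and the libraries were mixed across the ages, with a log2 fold change of 0.02 ± 0.24 (SE; edgeR adjusted p = 0.95) that lay between -0.11 and 0.13 with 1 library left out. A change of the size seen in C1qa would lie within 2 standard errors at this depth.

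**Figure D2:**
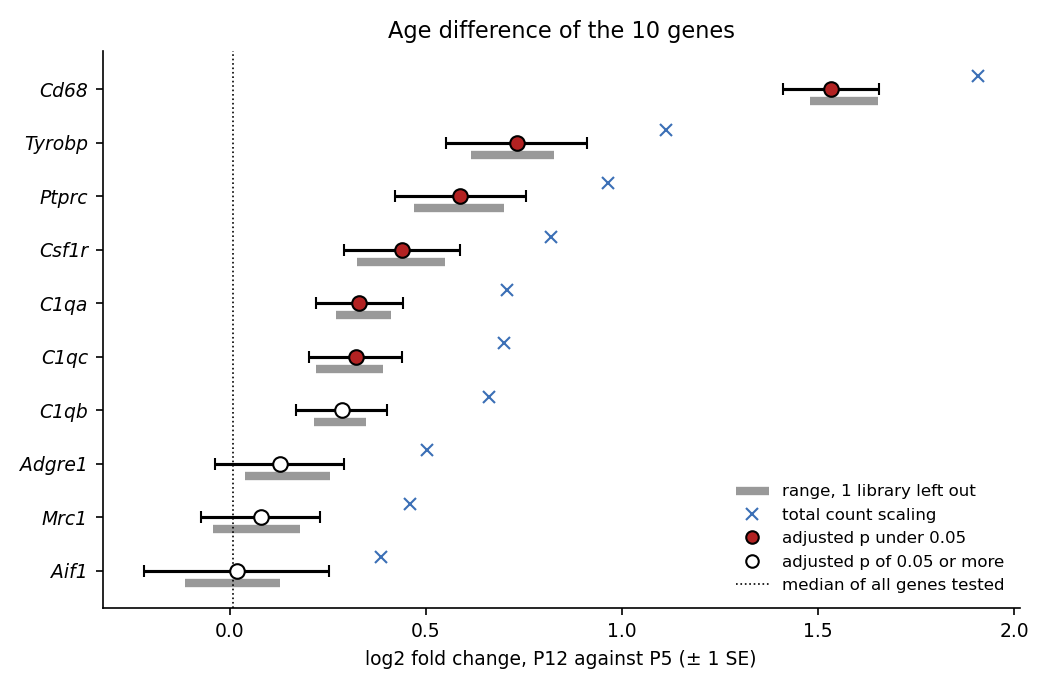
Log2 fold change (horizontal axis, P12 against P5) of the 10 genes, with 1 SE as a bar, the range over the fits that leave out 1 library in grey and the value under total count scaling as a blue cross. Red points passed the test, from Cd68 at 1.53 to C1qc at 0.32, and every cross lies to the right of its point.

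Within an age, the order of the libraries was shared by several members. P5 replicate 5 was the lowest P5 library for 6 of the 10 genes and P5 replicate 1 the highest for 6. P12 replicate 4 was the lowest P12 library for 7 and P12 replicate 1 the highest for 6. Summed over the 10 genes, the normalized count was 2135, 1950, 1942 and 1719 in P5 replicates 1, 3, 4 and 5, and 2954, 2933, 2437 and 2229 in P12 replicates 1, 2, 3 and 4. The lowest P12 sum, in replicate 4, was above the highest P5 sum, in replicate 1, which rests on Cd68. Without Cd68 these sums were 1931 and 2003, so the ages overlapped. Aif1 went against this order, since it was highest in P12 replicate 4.

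Among 11219 other genes with a mean normalized count of at least 100, likeness to the members was measured by Pearson's r with their mean standardized level over the 8 libraries. The highest were Zcchc17 (r = 0.988), Six2 (0.985), Rhobtb2 (0.985), Tifa (0.981) and Xrcc6 (0.978). With the mean of each age taken away first, the highest were Cmas (0.987), Six2 (0.982), Tifa (0.982), Ten1 (0.982) and Fbxl7 (0.971). Six2 and Tifa were in both sets of 5. These are the tops of 11219 values over 8 libraries and describe these libraries only.

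The members were also compared with Csf1r in the same library, which takes library size and scaling out of the comparison. The log2 ratio of Cd68 to Csf1r was -2.15, -2.27, -2.55 and -2.17 in P5 replicates 1, 3, 4 and 5, and -1.27, -1.51, -1.10 and -0.83 in P12 replicates 1, 2, 3 and 4. All P12 libraries lay above all P5 libraries, and the means were -2.29 ± 0.18 and -1.17 ± 0.29 (SD, n = 4), a difference of 1.11 with an exact permutation p of 0.0286. Of the 9 ratios, this was the only one without overlap between the ages. With the summed count of the other members in place of Csf1r, the exact permutation p was 0.0286 for Cd68 (difference 1.19), Mrc1 (-0.43) and Tyrobp (0.28), each 0.0857 when adjusted over 9 ratios. Adjusted over the 9 ratios to Csf1r, the p of Cd68 was 0.257, which in this design could pass only if at least 6 ratios separated fully. The ratio of Tyrobp to Csf1r was higher at P12 by 0.29 (exact permutation p = 0.0857), and that of Ptprc by 0.16 (p = 0.4 in the same permutation test). The ratio of Mrc1 to Csf1r differed by -0.37 (exact permutation p = 0.0571), with only P5 replicate 1 reaching down to P12 replicate 1. For the 3 C1q chains the difference was between -0.15 and -0.11, for Adgre1 -0.29 and for Aif1 -0.40, all with exact permutation p of 0.143 or more. With 1 library left out, the difference ran from -0.18 to -0.03 for C1qa, -0.25 to -0.05 for C1qb and -0.20 to -0.03 for C1qc. For Adgre1 it ran from -0.41 to -0.17, for Aif1 from -0.64 to -0.29 and for Ptprc from 0.05 to 0.25. The SD between libraries of these ratios was 0.24 to 0.26 at P5 and 0.11 to 0.18 at P12 for the C1q chains.

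**Figure D3:**
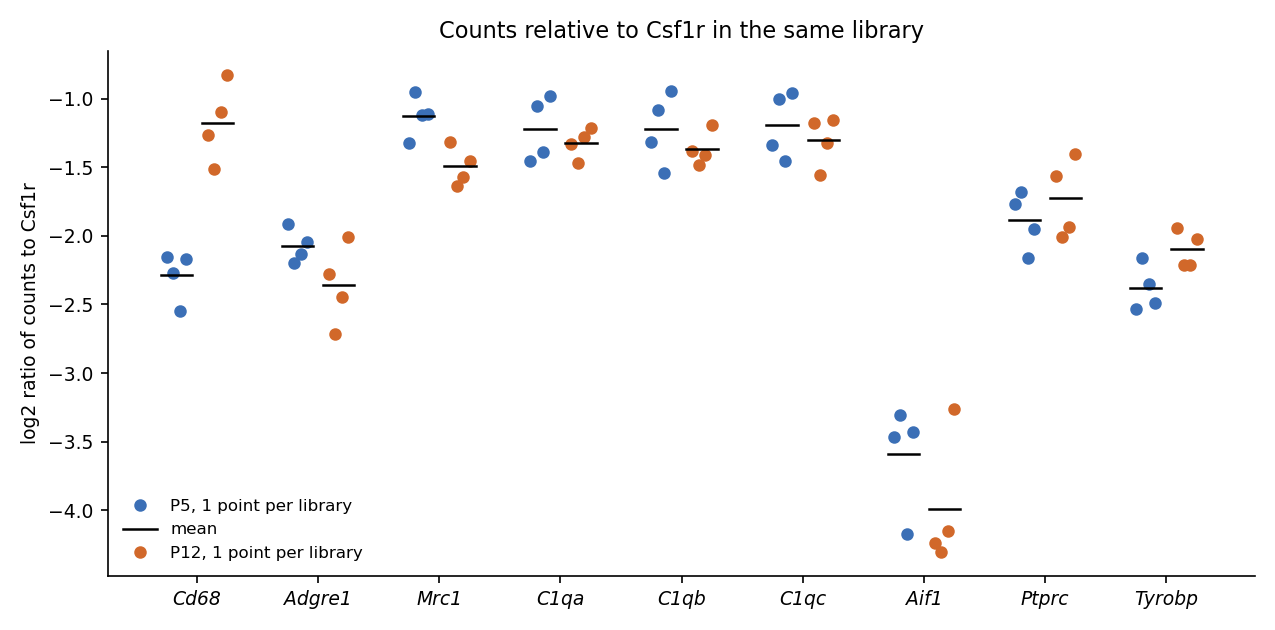
Log2 ratio of the count of 9 genes to the count of Csf1r in the same library (vertical axis), for the P5 libraries in blue and the P12 libraries in orange, with a black line at the mean. Only the Cd68 ratios are fully separated between the ages, with means of -2.29 and -1.17.

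Levels of different genes were compared as normalized counts per kilobase of the gene length in the table (mean ± SD, n = 4). At P5 the order was C1qa (212 ± 8.18), C1qb (203 ± 16.9), Tyrobp (148 ± 23.4), C1qc (117 ± 7.85), Csf1r (106 ± 15.4), Cd68 (84.2 ± 14.2), Adgre1 (38.2 ± 7.72), Mrc1 (37.2 ± 4.25), Aif1 (27.8 ± 6.47) and Ptprc (7.67 ± 1.5). The library ranges of neighbours in this order overlapped except between C1qb and Tyrobp, between Cd68 and Adgre1 and between Aif1 and Ptprc. At P12 it was C1qa (267 ± 36.6), C1qb (247 ± 33.1), Tyrobp (245 ± 49.4), Cd68 (243 ± 5.79), C1qc (146 ± 21.8), Csf1r (144 ± 29.3), Adgre1 (41.5 ± 4.7), Mrc1 (39.1 ± 8.07), Aif1 (28.2 ± 5.12) and Ptprc (11.5 ± 1.94). Here the first 4 could not be ordered, and gaps between library ranges lay after Cd68, after Csf1r and after Aif1. By its mean on this length, Cd68 thus moved from place 6 to place 4, past C1qc and Csf1r. Its place among the first 4 was not resolved.

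The length in the table is 18313 bases for Ptprc, 1931 for C1qc and 1532 for Aif1, compared with 5074, 1203 and 875 for the longest coding transcript in GENCODE M21. With that transcript length, an alternative chosen after seeing the data, the level per kilobase was 27.7 at P5 and 41.5 at P12 for Ptprc, and 188 and 234 for C1qc. C1qc then stood at place 3 at P5, and at P12 Tyrobp came first with 274. Cd68 stood at place 3 at P12, with 249 ± 5.92 against 234 ± 34.9 for C1qc (mean ± SD). On this length its move past C1qc was thus not resolved. Ptprc was in place 10 at both ages on either length.

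**Figure D4:**
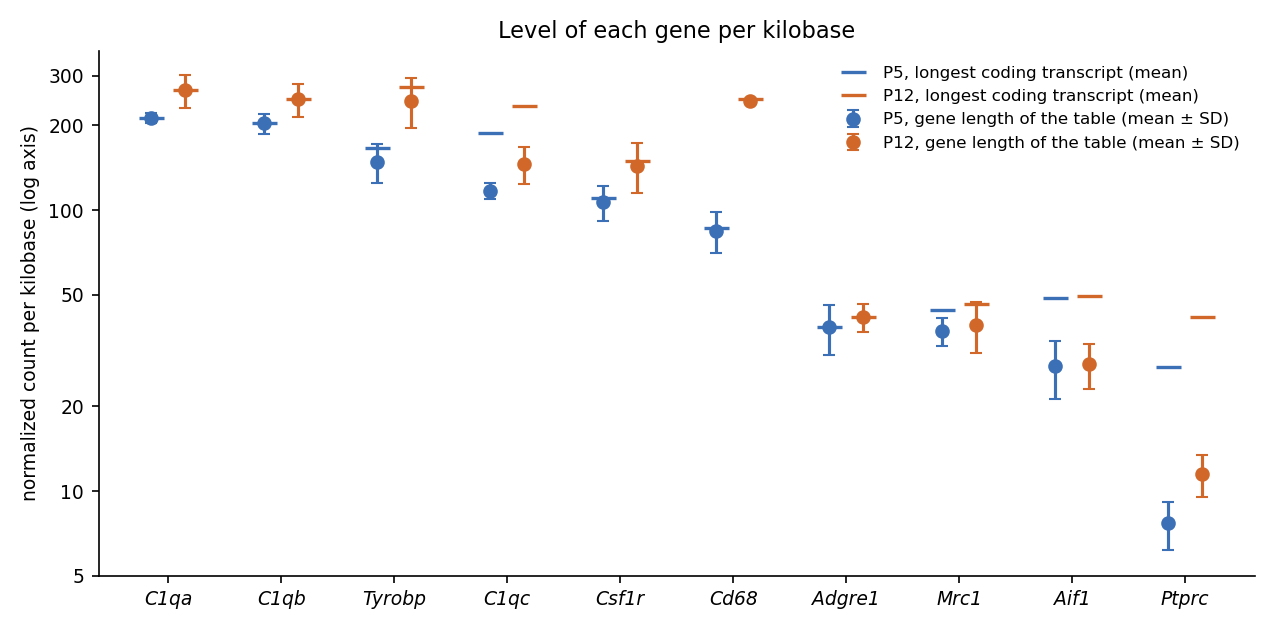
Normalized count per kilobase (vertical log axis) of the 10 genes at P5 (blue) and P12 (orange), as mean and SD over 4 libraries with the gene length of the table (points) and as mean with the longest coding transcript (dashes). Ptprc, C1qc and Aif1 lie higher with the transcript length, and 6 genes from C1qa to Cd68 lie above the other 4 at both ages.

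Of 8 genes for the ligands of Csf1r and for transcription factors of macrophages, 4 rose and 1 fell, with a median log2 fold change of 0.54. The counts in this list and those below stand beside 28.8% of all genes tested called higher and 28.4% called lower. Without overlap between the ages, 26% of all genes lay above at P12 and 26.6% below. Csf1, the main ligand, had normalized counts of 177, 178, 189 and 173 in P5 replicates 1, 3, 4 and 5, and 366, 348, 232 and 236 in P12 replicates 1, 2, 3 and 4. The ages did not overlap, and the log2 fold change was 0.73 ± 0.16 (SE; edgeR adjusted p = 0.0023). Il34, the second ligand, had low counts of 9.2 to 21.2 at P5 and 13.1 to 46.4 at P12. Its log2 fold change was 1.18 ± 0.41 (SE; adjusted p = 0.029), and the call was lost without P12 replicate 2 (0.0902) or 3 (0.0691) or P5 replicate 1 (0.078), 3 (0.0628) or 4 (0.0815), and with limma-voom (0.0642), in a range of 0.001 to 0.0902 over its alternatives. Spi1, which encodes PU.1, ran from 90.6 to 129 at P5 and from 113 to 161 at P12, with a log2 fold change of 0.33 (adjusted p = 0.12). For Irf8, a factor of the monocyte line, the log2 fold change was 0.36 (adjusted p = 0.14). Without P12 replicate 4 the adjusted p was 0.0437 for Spi1 (0.00496 to 0.29 over its alternatives) and 0.0471 for Irf8 (0.0086 to 0.566), and without both libraries that stood apart it was 0.0302 for Spi1.

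The factors Cebpa and Cebpb, which act in myeloid cells and also in epithelia, rose by log2 fold changes of 1.47 and 0.90 (edgeR adjusted p = 0.00031 and 0.00035). Maf, which encodes a factor of macrophages and other cells, fell, with a log2 fold change of -1.84 (adjusted p = 5.2e-08). Per kilobase, Maf stood at 2426 at P5 and 676 at P12, against at most 267 for any of the 10 members. For Runx1 the log2 fold change was -0.08 (adjusted p = 0.74), and without P12 replicate 4 its adjusted p was 0.0142, and 0.000939 without P5 replicate 5 as well (0.000939 to 0.989 over its alternatives). The cell types that carry the transcripts of Maf cannot be told apart in these libraries.

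Of 28 further macrophage genes, 25 were tested, of which 8 rose and 1 fell, with a median log2 fold change of 0.36. The number that rose is near the share over all genes tested, of which 28.8% rose and 28.4% fell. Lyz2, which encodes lysozyme and had the highest level per kilobase among those that rose, had normalized counts of 1041, 692, 751 and 717 at P5 and 1321, 1404, 1122 and 1033 at P12. Only P5 replicate 1 overlapped the P12 range, and the log2 fold change was 0.61 ± 0.14 (SE; edgeR adjusted p = 0.0026). The largest rises were those of the lipopolysaccharide co-receptor Cd14 (1.14, adjusted p = 0.0017), the haemoglobin scavenger receptor Cd163 (0.91, 0.0051) and the inhibitory Fc receptor Fcgr2b (0.88, 0.003), each given as log2 fold change and adjusted p. All 3 were without overlap between the ages. Mertk, a receptor for the uptake of dying cells, fell by 0.87 on the log2 scale (adjusted p = 4.6e-05). Its level per kilobase was 842 at P5 and 462 at P12, above that of every member. The other 16 genes tested did not pass. Their log2 fold changes ran from -0.22 for Cx3cr1 (edgeR adjusted p = 0.24) to 0.86 for Lyve1 (0.065). Among these, Trem2 was at -0.0076 (adjusted p = 0.98), Fcgr3 at -0.0081 (0.97) and Mpeg1 at 0.12 (0.35).

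Folr2, Timd4 and Marco, which mark subsets of tissue macrophages, were too low to be tested. Marco, a scavenger receptor, had normalized counts of 15.4, 11.2, 14.5 and 20.1 in P5 replicates 1, 3, 4 and 5 and 0.7, 0, 5.6 and 1 in P12 replicates 1, 2, 3 and 4. All P5 libraries lay above all P12 libraries (exact permutation p = 0.0286), so this gene ran opposite to Cd68 and Tyrobp at a depth of few reads. A count of 3 reads, the floor that counting error sets, corresponds to 2.2 to 3.95 normalized counts in these libraries.

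Of 14 genes found in most leukocytes, 10 rose and 1 fell, with a median log2 fold change of 0.62. The largest rises were those of Cd37 (1.18, adjusted p = 0.0042), Cd52 (1.09, 0.0029), Cd53 (0.93, 0.0019) and Cytip (0.86, 0.0058), surface proteins of leukocytes and a regulator of their adhesion, each without overlap between the ages. The gene that fell was Vav1, an exchange factor of blood cells (log2 fold change -0.60, adjusted p = 0.011). Its call was lost in the 6 libraries with shared numbers, without the block (0.0802) and with it (0.115), and under total count scaling (-0.23, 0.278), in a range of 0.00373 to 0.278 over its alternatives. The most abundant per kilobase was Ptpn6, a phosphatase, with a log2 fold change of -0.12 (adjusted p = 0.26) that was 0.25 (0.0205) under total count scaling and -0.23 (0.0273) without both libraries that stood apart, in a range of 0.0205 to 0.498 over its alternatives. Summed over the 14 genes, the normalized count was 2318, 2268, 2408 and 2012 at P5 and 3265, 3221, 2526 and 2608 at P12.

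Of 16 genes of antigen presentation and dendritic cells, 11 were tested and 5 rose (Cd74, H2-Aa, H2-Ab1, H2-Eb1 and H2-DMb1), with a median log2 fold change of 1.04. The other 6 did not pass. They ran from -0.59 for Ciita (edgeR adjusted p = 0.077) to 1.04 for Itgax (0.07), with H2-DMa at -0.06 (0.88). Cd74, which encodes the invariant chain that guides class II molecules, had normalized counts of 69.4, 45.8, 48.8 and 54 in P5 replicates 1, 3, 4 and 5, and 519, 518, 314 and 281 in P12 replicates 1, 2, 3 and 4. The class II chain gene H2-Aa had 11.6, 16.8, 13.2 and 27.5 at P5 and 223, 271, 170 and 130 at P12. In both genes P12 replicates 3 and 4 were lower than replicates 1 and 2, and every P12 library was far above the P5 libraries. The log2 fold changes were 2.91 ± 0.24 for Cd74 and 3.49 ± 0.31 for H2-Aa (SE; edgeR adjusted p = 1.6e-06 and 2.8e-06), and 2.58 and 2.79 for H2-Ab1 and H2-Eb1. The dendritic cell markers Flt3, Xcr1, Clec9a and Ccr7 and the Langerhans cell marker Cd207 were too low to be tested. Cd207 was at 0 in every P12 library and Xcr1 in every P5 library.

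Of 15 complement genes outside C1q, 11 were tested, of which 7 rose and 2 fell, with a median log2 fold change of 1.10. C1ra and C1s1, which encode the proteases that C1q activates, rose by log2 fold changes of 2.25 ± 0.27 and 1.93 ± 0.18 (SE; edgeR adjusted p = 2.7e-05 and 3.4e-06). C1s1 had normalized counts of 116, 122, 157 and 110 at P5 and 598, 532, 348 and 441 at P12. Serping1, the inhibitor of these proteases, had 131, 112, 165 and 117 at P5 and 1293, 1175, 749 and 643 at P12, with a log2 fold change of 2.89 (adjusted p = 1.4e-06). C4b, the next component of the pathway, rose by 2.44 on the log2 scale (adjusted p = 0.00024). The proteases, their inhibitor and C4b were separated between the ages by more than the C1q chains, whose log2 fold changes were 0.29 to 0.33, and the difference between these fold changes was not tested. The 2 genes that fell encode regulators on the cell surface, Cd55 (-1.20, adjusted p = 0.00014) and Cd59a (-0.74, 2e-05). Cfb, Cfd, C6 and C7 were too low to be tested, and C6 had no count in any library.

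Other leukocytes were followed by their own markers. Of 14 neutrophil genes, 9 rose and 2 fell, with a median log2 fold change of 0.70 and summed normalized counts of 3337, 2749, 3177 and 2557 at P5 and 5115, 4474, 4265 and 3869 at P12. S100a9, the most abundant per kilobase, rose by 0.74 on the log2 scale (edgeR adjusted p = 2.2e-05), and the largest rises were those of Ly6g (1.96, 0.011), Cxcr2 (1.21, 0.0036), Retnlg (1.04, 0.00097) and Ngp (0.87, 0.00032). The call of Ly6g was lost in the 6 libraries with shared numbers, without the block (0.0675) and with it (0.0788). Ly6g had only 5, 0, 7 and 2 reads in P5 replicates 1, 3, 4 and 5, and 15 to 24 at P12. Cxcr2 had 7 to 16 reads at P5 and 29 to 40 at P12. The size of both rises thus rests on few reads. The genes that fell were Mmp8 (-0.39, adjusted p = 0.016) and Stfa2l1 (-0.70, 0.046). The call of Mmp8 was lost without P12 replicate 3 (0.0532) and that of Stfa2l1 without P12 replicate 1 (0.0576), 2 (0.104), 3 (0.0998) or 4 (0.0521) or P5 replicate 1 (0.157) or 4 (0.0546), and with limma-voom (0.0714). Without P5 replicate 1 the log2 fold change of Stfa2l1 was -0.35. Of 12 genes of B and plasma cells, 11 were tested, of which 9 rose and 1 fell, with a median log2 fold change of 1.63. Ms4a1 (2.57, adjusted p = 0.0045), Vpreb3 (2.05, 0.0038), Blk (1.89, 0.01) and Cd79b (1.87, 0.00031), genes of B cells and their precursors, rose most. Igkc, the constant region of the kappa chain, fell by 1.81 on the log2 scale (adjusted p = 3.8e-05), opposite to the 9 B cell genes that rose. The plasma cell gene Jchain was too low to be tested.

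Several T cell markers were near 0. Of 16 genes of T and natural killer cells, 11 were too low to be tested, among them Cd3d, Cd3e, Cd3g and Cd8a, none of which exceeded 6.7 normalized counts in any library, and Trbc1, Cd2, Cd7, Ncr1, Klrb1c, Nkg7 and Gzma. The 3 that rose were Trbc2 (2.20, adjusted p = 3.5e-06), Il7r (1.63, 0.0078) and Cd4 (1.21, 0.0079). Trbc2, a constant region of the T cell receptor, reached 184 to 251 normalized counts at P12 while Cd3e, whose product is needed for that receptor, had 4 at most. Of 13 genes of mast cells and basophils, 7 were tested, Tpsb2 rose (0.99, adjusted p = 0.0071) and Kit fell (-0.34, 0.024). The fall of Kit was lost without P12 replicate 1 (0.057) or 2 (0.0563) or P5 replicate 4 (0.0566) or 5 (0.0615), and under total count scaling its log2 fold change was 0.032. Mcpt1, Mcpt8, Tpsab1, Ms4a2 and Mrgprb1 were too low to be tested, and Fcer1a, the defining receptor chain, had no count in any library.

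Of 11 monocyte genes, 9 were tested, and 5 rose (Nr4a1, Ccr2, Chil3, Ly6c2 and Fn1) while Vcan fell, with a median log2 fold change of 0.85. Ccr2, the chemokine receptor of inflammatory monocytes, rose by 1.37 on the log2 scale (adjusted p = 0.0011), from 19.1 to 31.6 normalized counts at P5 to between 38.2 and 72.6 at P12. Without both libraries that stood apart, Ly6c2 did not pass (0.61, adjusted p = 0.0815). Fn1 and Vcan are made by many mesenchymal cells as well. S100a4 had no count at P5 and at most 6.5 normalized counts at P12, and Treml4 was also too low to be tested. Of 11 osteoclast genes, all 10 that were tested rose, with a median log2 fold change of 2.05, and Calcr was too low. Their summed normalized count was 2206, 1876, 2950 and 2099 at P5 and 11070, 13383, 9007 and 7165 at P12. Ctsk, the collagen-degrading cathepsin of osteoclasts, was the most abundant per kilobase and rose by 2.10 ± 0.25 (SE; adjusted p = 2.6e-05), and the acid phosphatase Acp5 rose by 2.34 (2.5e-05). The largest rises were those of Ocstamp (3.28, 0.00048) and Itgb3 (2.98, 4.4e-08). Cd68 is also made by osteoclasts. The part of these cells in its rise, or in the values of the other members, was not tested.

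Of 14 chemokine genes, 5 were tested and all 5 rose (Cxcl12, Ccl9, Cx3cl1, Ccl6 and Cxcl14). Cx3cl1, the ligand of the macrophage receptor Cx3cr1, had normalized counts of 275, 284, 257 and 250 at P5 and 576, 511, 638 and 593 at P12, without overlap (log2 fold change 1.12 ± 0.09, adjusted p = 1e-06). The call of Ccl6 (adjusted p = 0.049) was lost without P12 replicate 1 (0.117), 2 (0.107) or 4 (0.0727) or P5 replicate 1 (0.0795), 3 (0.138) or 5 (0.128), and without both libraries that stood apart (0.137). The monocyte attractants Ccl2, Ccl7, Ccl8 and Ccl12 and the inflammatory chemokines Ccl3, Ccl4, Ccl20, Cxcl1 and Cxcl2 were too low to be tested. Of 14 activation genes, 9 were tested and 7 rose, with a median log2 fold change of 2.16. Gpnmb, a glycoprotein of lysosome-rich macrophages and osteoclasts, had normalized counts of 64.3, 52.5, 47.5 and 70.9 at P5 and 666, 635, 659 and 641 at P12 (log2 fold change 3.46 ± 0.11, adjusted p = 1.9e-09). Like Cd68, it was even among the 4 P12 libraries. Il1rn rose by 4.04 (adjusted p = 7.7e-05) and was lowest at P12 in replicate 4, with 50.2 normalized counts against 192 to 224 in the other 3. Il18 rose by 2.86 (2.3e-06). Ptgs2 rose by 2.30 (0.0149), although P12 replicate 4, with 4 normalized counts, lay below the P5 range, and the call was lost without P12 replicate 2 (0.0524), with limma-voom (0.193) and in the 6 libraries with shared numbers, without the block (0.113) and with it (0.151), in a range of 7.04e-05 to 0.193 over its alternatives. For Apoe the log2 fold change was 0.18 (adjusted p = 0.053), and it passed with DESeq2 (0.0371), with limma-voom (0.0463), without P12 replicate 4 (0.00991) and without both libraries that stood apart (0.013), in a range of 0.000116 to 0.249 over its alternatives. Il6, Tnf, Nos2 and Il10 were too low to be tested, and Retnla had no count in any library.

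**Figure D5:**
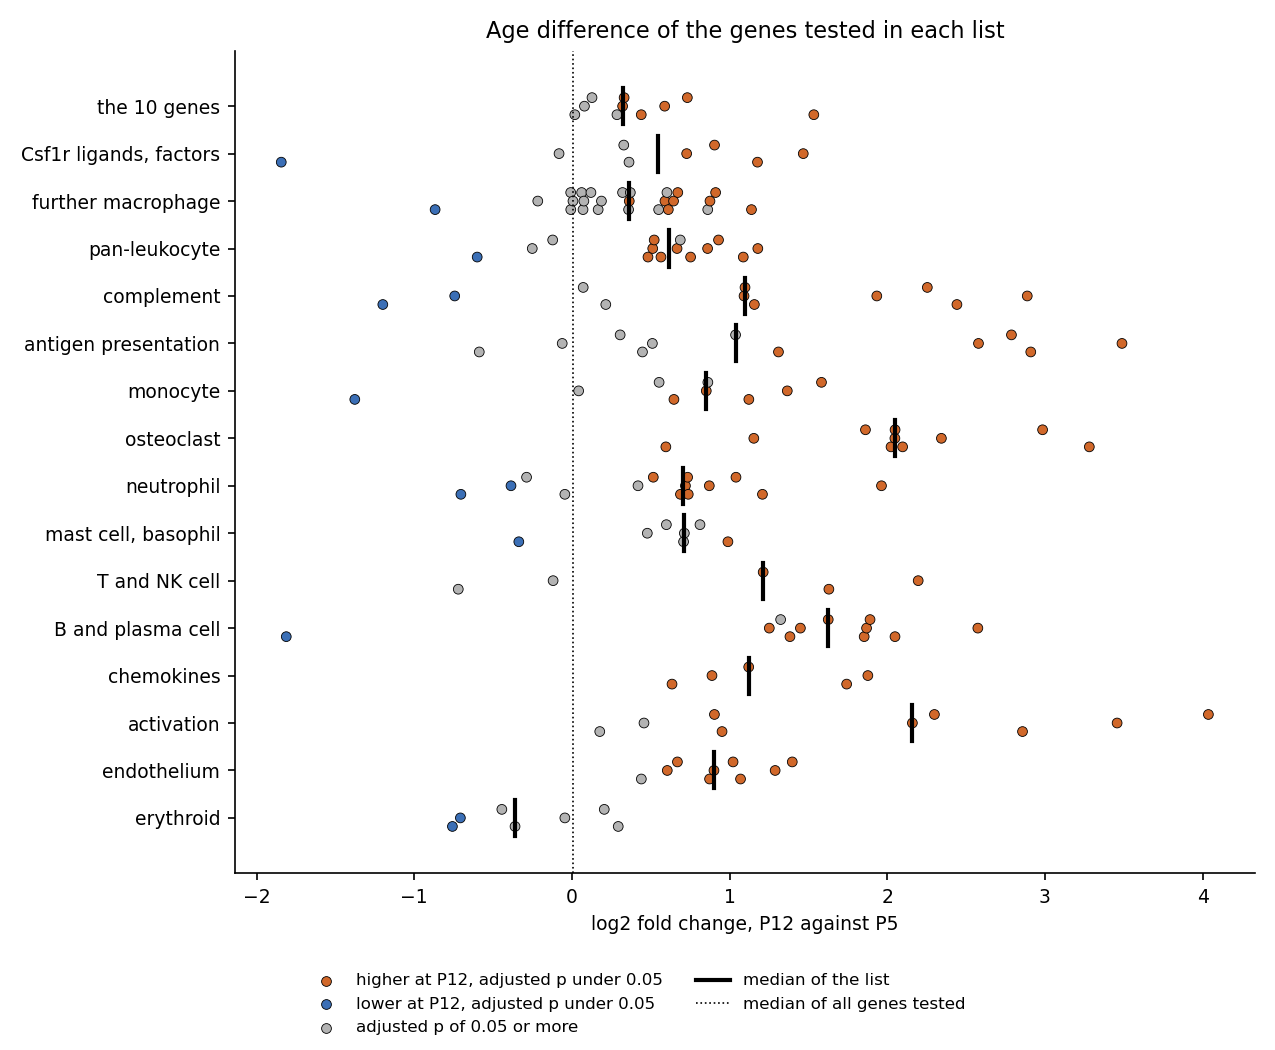
Log2 fold change (horizontal axis, P12 against P5) of each tested gene in 16 lists, with orange for genes that rose, blue for genes that fell, grey for genes that did not pass, a black bar at the median of the list and a dotted line at the median of all genes tested (0.01). The median of the 10 genes is 0.33, below those of the pan-leukocyte (0.62), B cell (1.63) and osteoclast (2.05) lists.

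Markers of the other cells in the tissue moved with age too, and their part in the values above was not tested. Of 13 genes of the enamel epithelium, 8 rose and 5 fell (Amelx, Enam, Ambn, Mmp20 and Cdh1), and their summed normalized count was 5073298 to 5713451 at P5 and 893357 to 1364015 at P12. Enamel organ markers were thus present at both ages, led per kilobase by Amelx at P5 and Odam at P12, and Wdr72 rose by 3.97 on the log2 scale. Of 9 endothelial genes, 8 rose, with a median log2 fold change of 0.90 and Plvap as the most abundant per kilobase and rises in Flt1 (1.29), Kdr (1.07) and Pecam1 (1.02), and their sum was 3399 to 4350 at P5 and 7229 to 7933 at P12. Of 9 mesenchymal genes, 4 rose (Postn, Col3a1, Pdgfrb and Lum) and 3 fell (Pdgfra, Dcn and Col1a2), with Col1a1 as the most abundant per kilobase at both ages. The call of Col1a2 was lost without P12 replicate 2 (adjusted p = 0.052) or 3 (0.103) or P5 replicate 1 (0.0692) or 3 (0.0746), and Col1a1 passed with DESeq2 (0.00119), with limma-voom (0.01) and without P12 replicate 1 (0.0338) or 4 (0.0437) or P5 replicate 4 (0.047). All 7 oral epithelium genes rose, with a median log2 fold change of 4.18, among them Krt6b (8.28), Krt24 (8.02), Krt76 (6.70) and Krt13 (4.18), and at P12 Krt6b and Krt13 had the highest levels per kilobase (3748 and 3634). These 4 were without overlap between the ages, and in the other genes of the list P12 replicate 4 lay within the P5 range. Of 6 odontoblast and bone genes tested, Ibsp and Sp7 rose, Dspp, the most abundant per kilobase at both ages, did not pass, and Dmp1 fell, a call that was lost without P12 replicate 1 (0.0524), 3 (0.121) or 4 (0.0715) or P5 replicate 3 (0.0637), 4 (0.058) or 5 (0.149) and without both libraries that stood apart (0.186), while Mepe was too low to be tested. Of 7 erythroid genes, Hba-a1 and Hbb-bt fell, the second lost without P12 replicate 2 (0.0586) or P5 replicate 1 (0.0745) or 3 (0.0828), and Hbb-bs passed without P5 replicate 5 (0.000966), without P12 replicate 4 as well (7.2e-05) and with DESeq2 (0.0218). Of 5 muscle and nerve genes tested, Mbp rose and 3 fell (Myh8, Acta1 and Ckm), while Myh3 was too low to be tested. The call of Ckm was lost without P12 replicate 1 (0.0983) or 2 (0.0748) or P5 replicate 1 (0.0696), 3 (0.0999) or 4 (0.114).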

How the data were processed

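The deposited table gives counts, which are read counts per gene made by the authors without normalization, for 8 libraries of polyadenylated RNA, 4 at P5 and 4 at P12. Each library is a pool of 5 pups, so p-values measure the spread between pools. The aligner and counter are not stated. The labels list CASAVA and mm39, whereas 53548 of the 54532 gene IDs have the same coordinates in GENCODE M21, which is on GRCm38, so coordinates are given on GRCm38. Counts were filtered with filterByExpr, scaled by TMM and tested with the quasi-likelihood test of edgeR 4.0.16, adjusted by Benjamini-Hochberg over all 16440 genes tested. Normalized counts are scaled to the mean effective library size of 19006280, and list sums use them. Single values were also compared by an exact two-sided permutation test over all 70 ways to divide 8 libraries into 4 and 4, on log2 values with a pseudocount of 1. Floors of 3 counts cover counting error only.

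Alternatives were DESeq2 1.42.0 and its size factors, limma-voom 3.58.1, total count scaling, scaling without the 20 most abundant genes, no filter, at least 10 counts in every library, a threshold of 0.01 on the adjusted p, a minimum size of 1 on the log2 scale, a block for the replicate number, and each library left out. Leaving out both P5 replicate 5 and P12 replicate 4, and the transcript length for levels, were chosen after seeing the data. Of the genes in the lists, 4 are not reported here and were left out of the list counts. The members and the gene lists were chosen with earlier results of these data known. Named are all members, the genes of the Csf1r list, in each other list the most abundant gene per kilobase (over both ages) and up to 4 genes with the largest changes, and markers too low to test. Cd55, Vav1, Mmp8, Stfa2l1, H2-DMb1, Ly6c2, Col1a2, Dcn, Pdgfra, Ckm, Ambn, Mmp20, Cdh1, Klk4, Slc24a4, Amtn and Hmgxb3 were named after their values were seen. So were Cx3cr1, Lyve1, Trem2, Fcgr3, Mpeg1, Ciita, Itgax and H2-DMa, whose calls under the alternatives are not given. The code was tested on simulated data. Software was R 4.3.3 and Python 3.11.15 with numpy 2.4.6, pandas 2.3.3, scipy 1.17.1 and matplotlib 3.10.9.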

Additional observations from a re-analysis of the deposited data

Results flagged for a closer look

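In 15 of 228 sets of 4 libraries, 1 for each of 114 named genes at each age, 1 library lay far from the other 3 by Dixon's criterion. Chance flags about 1 in 20 groups, which is 11.4 of 228. Among the members these were Cd68 in P5 replicate 1, with a normalized count of 132, and C1qa in P5 replicate 3, with 234. In P5 replicate 1 the others were Lyz2 (1041) and Stfa2l1 (138). In P5 replicate 4 they were Mmp8 (166) and Col1a2 (325109). In P5 replicate 5 they were Cd79b (15.9), Vcan (3673), Dmp1 (2078) and Krt76 (5.3). In P12 replicate 4 they were Ptpn6 (461), Ccr2 (38.2), Apoe (3416) and Hbb-bs (8421). In P12 replicate 3 it was Ccl6 (24.1). The causes were not tested.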

How the results depend on the processing

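Over 20 alternatives for each member, 154 of 200 log2 fold changes kept their direction and their side of the threshold, 31 no longer passed, 5 newly passed and 10 changed sign. For all 114 named genes the numbers were 2055, 159, 31 and 18 of 2263. The 10 all belonged to Mrc1 or Aif1, which passed in none of them. Mrc1 was at -0.053 in the 6 libraries described below, -0.078 with the block, and with 1 library left out between -0.042 (without P12 replicate 1) and 0.18, with -0.0031 without P5 replicate 5. Aif1 was at -0.022 and -0.021 in these 6 libraries without and with the block, -0.15 without both P5 replicate 5 and P12 replicate 4, and with 1 library left out between -0.11 (without P5 replicate 4, or P12 replicate 4) and 0.13, with -0.027 without P5 replicate 5. The members that rose numbered 6, and 3 to 7 with 1 library left out, the lowest without P12 replicate 1, P12 replicate 2 or P5 replicate 5 (3 each). They numbered 2 at an adjusted p under 0.01, where 45.1% of all genes tested were called (3713 higher and 3709 lower). With a log2 fold change of 1 or more in size required beside an adjusted p under 0.05, 1 member rose. There 3541 genes were called in place of 9411, which is 21.5% of all genes tested (1864 higher and 1677 lower).

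With a block for the replicate number, in the 6 libraries that share a number between the ages, 2 members rose (Cd68 and Ptprc), and in the same 6 libraries without the block 2 rose (Cd68 and Tyrobp), where 47% and 49.5% of all genes tested were called, against 57.2% in all 8 libraries. In these 6 libraries 7 pan-leukocyte and 6 further macrophage genes rose without the block and 5 and 5 with it, in place of 10 and 8 in all 8 libraries. In these libraries the calls of Blk, C1qa, C1qc, Ccl6, Cd4, Col1a2, Csf1r, Kit, Ly6c2, Ly6g, Ptgs2, Stfa2l1 and Vav1 were lost with and without the block, those of Ckm, Il34 and Ptprc only without it and those of Cd163, Cytip, Il7r, Mmp8, Tpsb2 and Tyrobp only with it. In libraries of the same number, deviations from the age means correlated with r of -0.03, 0.02 and -0.00 over 11345 genes, which are not independent replicates. Libraries of different numbers ran from -0.08 to 0.08. These values show no pairing by number, but they cannot show that the libraries were unpaired.

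Under total count scaling 16 further macrophage genes and 8 antigen presentation genes rose, in place of 8 and 5, and the log2 fold changes of Cdh1 (0.062), Col1a1 (0.032), Col1a2 (0.019), Kit (0.032), Ptpn6 (0.25) and Runx1 (0.28) changed sign, of which only that of Ptpn6 passed. Runx1 also changed sign without P12 replicate 1 (0.039) or 2 (0.0038), in a range of -0.35 to 0.039 with 1 library left out. The calls of Ckm, Dcn, Dmp1, Hba-a1, Hbb-bt, Mmp8, Stfa2l1 and Vav1 were lost under that scaling. Dspp (log2 fold change 0.45, adjusted p = 0.0108), Apoe, Irf8 and Spi1 newly passed under it. The B cell genes that rose were 5 in place of 9 with at least 10 counts in every library, where fewer genes were tested. With a size of 1 or more on the log2 scale also required, 2 pan-leukocyte, 1 further macrophage and 3 neutrophil genes rose, in place of 10, 8 and 9. The causes of the other differences were not tested. The number of pools limits the permutation p to 0.0286 at the lowest, and depth limits Aif1, with 23 counts in P5 replicate 4.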
